A study of Mus musculus with 63 samples.

Results

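The genes of the proteasome and its regulators were followed through 63 RNA-sequencing libraries of mouse entorhino-hippocampal tissue cultures. Members were the 50 protein-coding genes, of 21833 in the deposited annotation, whose symbol starts with Psm followed by a letter from a to g and a digit. Another 5 symbols of this pattern were pseudogenes of Psma5, Psmb5, Psmb6 and Psmb7 and were left out, and reads of these parent genes could be shared with them. By textbook role the members comprised 7 alpha-ring and 7 beta-ring genes of the core particle, 3 immunosubunits (Psmb8, Psmb9 and Psmb10), 6 ATPases and 3 other subunits of the base, and 8 subunits of the lid. The remaining members were 5 activator genes (Psme1, Psme2, Psme2b, Psme3 and Psme4), the core-binding inhibitor gene Psmf1, 3 chaperones of base assembly, 4 chaperones of core assembly, and the tissue-restricted core genes Psma8 (testis) and Psmb11 (cortical thymus). Psmc3ip carries the name of an ATPase partner but encodes a recombination factor, and it was kept only because the naming pattern holds it.

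The proteasome is the protease that degrades ubiquitin-tagged proteins in every cell. Its barrel-shaped core holds the proteolytic sites on the inner beta rings, and a regulatory particle made of a base, which unfolds substrates with ATP, and a lid, which removes ubiquitin, feeds proteins into it. Interferon and inflammatory signals induce 3 beta subunits that replace the constitutive catalytic ones (Psmb9 for Psmb6, Psmb10 for Psmb7, Psmb8 for Psmb5), as well as the activator pair Psme1 and Psme2, which changes the peptides offered to class I molecules. In nervous tissue such immunoproteasome genes are best known from microglia, while neurons mainly use the constitutive core.

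Tissue was taken at postnatal day 3-5 from Synpo+/+ mice (C57BL/6J) and from Synpo-/- mice (B6.129-Synpotm1Mndl/Dllr) of either sex, and the cultures were kept for at least 18 days in vitro. Synaptopodin, the product of Synpo, is an actin-binding protein of dendritic spines. In one experiment the entorhinal cortex was cut off with a scalpel (entorhinal cortex lesion, ECL), which removes the main input of dentate granule cells, and 1 dentate gyrus (DG) or 1 CA3 area was dissected per library, 3 days post lesion, or without lesion from control cultures. The Synpo+/+ groups held 4 control and 7 ECL libraries of the DG and 2 control and 3 ECL libraries of CA3. The Synpo-/- groups held 7 control and 4 ECL libraries of the DG and 6 control and 6 ECL libraries of CA3. In the other experiment, lysates of 6 pooled cultures each were precleared and divided into RNA of the precleared lysate (input) and RNA recovered with an anti-synaptopodin antibody (Synpo-coIP), from Synpo+/+ control cultures (5 pairs), Synpo+/+ ECL cultures (5 pairs, time after lesion not given in the labels) and Synpo-/- cultures (2 pairs). A dissected region contains neurons, glia and microglia together, and in such bulk libraries more cells of a type cannot be told apart from more RNA per cell. The labels do not tie libraries to animals, so p-values measure the spread between these libraries.

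Regional libraries held 14055930 to 46043990 counts on genes (median 22354491) and input and coIP libraries 11601154 to 53682143. The DG marker Prox1 was 118 to 219 CPM (counts scaled to a common library total) in 21 of 22 DG libraries and 12.6 to 44.6 in the 17 CA3 libraries, but 15.7 in the Synpo+/+ DG ECL library replicate 5, in which the CA3 kainate receptor gene Grik4 was 28.5 CPM against 7.06 to 13 in the other DG libraries. The Synpo+/+ DG lesion tests of the members are therefore also given without that library. Ratios, cell type markers and the lists of other genes are given only with it. Counts of Synpo were not lower in libraries labelled Synpo-/-. They were higher in DG control (40.6 to 68.1 CPM against 19.0 to 24.6 in Synpo+/+, adjusted p = 0.00052, edgeR), did not pass in CA3 control (log2 fold change 0.58, adjusted p = 0.113) and overlapped in the inputs (27.6 to 31 CPM against 21.0 to 31.7). In the coIP, Synpo was higher than in the input in Synpo+/+ control (0.47, adjusted p = 0.0107) and ECL cultures (0.47, adjusted p = 0.00134), and at -0.03 (adjusted p = 0.896) in Synpo-/-, a difference between genotypes that did not pass its own test (adjusted p = 0.761).

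The reference sequence upstream of 3 genes that recur below is shown because they carry, or lack, a motif linked to proteasome gene control. These are the constitutive catalytic genes Psmb5 and Psmb6 and the lid gene Psmd6, which rose in the DG of both genotypes. Sequences are from RefSeq (build GRCm38.p6), 5′ to 3′ on the strand of the gene, and capitals mark TGACNNNGC, the element bound by NFE2L1 and NFE2L2, which was found in Psmb5 and Psmb6.
Psmb5: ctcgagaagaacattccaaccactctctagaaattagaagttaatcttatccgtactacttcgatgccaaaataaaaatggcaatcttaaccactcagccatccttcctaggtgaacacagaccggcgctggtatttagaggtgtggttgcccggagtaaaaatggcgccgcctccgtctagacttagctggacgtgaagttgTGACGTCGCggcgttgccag
Psmb6: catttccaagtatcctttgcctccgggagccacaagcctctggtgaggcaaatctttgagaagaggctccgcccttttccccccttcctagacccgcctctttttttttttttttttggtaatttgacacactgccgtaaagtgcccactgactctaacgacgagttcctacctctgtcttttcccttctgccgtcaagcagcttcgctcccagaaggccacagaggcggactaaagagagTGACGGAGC
Psmd6: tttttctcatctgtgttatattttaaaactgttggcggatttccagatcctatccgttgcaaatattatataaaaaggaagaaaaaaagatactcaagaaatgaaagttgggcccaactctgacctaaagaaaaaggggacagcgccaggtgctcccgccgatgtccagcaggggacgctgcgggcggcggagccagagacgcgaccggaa
The Psmb5 (chr14:54618023-54618245, minus strand), Psmb6 (chr11:70525107-70525356, plus strand) and Psmd6 (chr14:14120985-14121195, minus strand) stretches lie outside every annotated exon. In GRCm38, Psmb8 (chr17:34197721-34201454, plus strand) and Psmb9 (chr17:34181987-34187764, minus strand) lie close together, as do Psme1 (chr14:55578123-55581529, plus strand) and Psme2 (chr14:55587441-55591113, minus strand). The match was 47 to 39 bases upstream of the RefSeq start in Psmb5 and 9 to 1 bases upstream in Psmb6. Among the 42 members with a RefSeq promoter entry, TGACNNNGC occurred within 250 bases upstream in 5 (11.9%: Psmb5, Psmb6, Psmc6, Psmd9 and Psmd12), against 11.5% of all 27025 symbols. The interferon-stimulated response element occurred in 3 (7.14%: Psmb3, Psmd4 and Psmd9) against 3.46%, CCAAT in 15 (35.7%) against 37.5%, and an NF-kappaB site in 10 (23.8%) against 19.7%. Both strands were searched.

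First, the levels of the members were set side by side as CPM per kilobase of merged exons. Plain CPM does not compare genes of different length. Merged exons join those of every annotated transcript and may exceed the transcript that is expressed, so levels and ranges depend on the annotation. Psmb2 had 1204 bp of merged exons and Psmd3 4967 bp. In Synpo+/+ control CA3 and DG the order was led by the core. In Synpo+/+ CA3 control cultures Psmb2, a non-catalytic beta subunit, was highest at 292 ± 56 CPM per kb (SD, n = 2), followed by the alpha subunit Psma6 at 230 ± 33 and the catalytic subunit Psmb6 at 187 ± 32. Each of these differed from the next by less than the sum of their SDs. The 31 constitutive core, base and lid genes spanned an 85.1-fold range in CPM per kb of merged exons. Their products occur in equal numbers in a particle capped at both ends. Within the core the range was 7.32-fold, within the base 8.96-fold and within the lid 40.5-fold, the lid gene Psmd3 being lowest at 3.43. The immunosubunits differed among themselves: Psmb10 stood at 27.2 ± 2.6, Psmb8 at 2.39 ± 1.1 and Psmb9 at 0.96 ± 0.12, while Psma8 (0.11) and Psmb11 (0.108) were lowest of all members. The same genes led in the DG, where Psmb2 and Psma6 were both at 196 in Synpo+/+ control libraries. In Synpo+/+ control inputs the base ATPase gene Psmc5 led at 396 ± 64, before Psmb6 at 364 ± 78 and the ATPase gene Psmc1 at 325 ± 43.

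Each immunosubunit was also expressed as a percentage of the constitutive subunit it replaces, per kb and within each library. The level of Psmb8 was 3.32 to 4.88% of Psmb5 in Synpo+/+ DG control libraries (mean 3.95%) and 3.20 to 6.74% 3 days post lesion (mean 5.61%). The 3.20% was that of ECL replicate 5, the library with CA3 markers, and the mean includes it. In Synpo-/- DG the means were 4.54% in control and 6.62% in ECL libraries, ranges 3.51 to 5.31% and 5.78 to 7.85%. In CA3 the ratio was lower, 2.15% in Synpo+/+ control and 3.14% in Synpo-/- control libraries. Psmb10 was closer to its counterpart, at 69 to 77% of Psmb7 as a group mean in regional libraries. In the inputs Psmb10 was above Psmb7, at 162% in Synpo+/+ control, 165% in Synpo+/+ ECL and 153% in Synpo-/- libraries on average. Psmb9 averaged 0.62% of Psmb6 in Synpo+/+ DG control and 0.51% in Synpo+/+ CA3 control libraries.

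Next, deafferented DG was compared with control DG in Synpo+/+ cultures. Of 48 members tested, 19 rose and none fell (edgeR quasi-likelihood test, adjusted p below 0.05 over all genes), where 7.86% of all genes rose and 4.31% fell (12.2% in either direction). All 48 had a positive log2 fold change, 0.02 to 0.93, with a median of 0.46 against -0.00 over all genes. The calls lay in every major part of the particle: 5 of 14 core genes, 5 of 9 base genes, 5 of 8 lid genes, 1 of 3 immunosubunits and 3 of 5 activators, but none of the 7 assembly chaperones. Every ECL library lay above every control library for 20 members (41.7%) and for 8.81% of all genes.

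Psmb8, the inducible chymotrypsin-like subunit, showed the largest difference. Its level was 8.70, 8.87, 8.27 and 11.4 CPM in the control libraries and 15.6 to 22.3 CPM (median 18.5) in the 7 ECL libraries. Every ECL library lay above every control library, a log2 fold change of 0.93 ± 0.138 (SE, adjusted p = 0.000889). Psme1, which encodes one subunit of the interferon-inducible activator ring, was at 59.8, 45.4, 58.0 and 59.4 CPM in control and 83.7 to 108 CPM (median 91.6) in ECL libraries. These groups did not overlap either (log2 fold change 0.65 ± 0.105, adjusted p = 0.00146). Its partner Psme2 was at 100.6, 69.5, 102 and 95.7 CPM in control libraries and 127 to 160 CPM (median 152) post lesion (0.63 ± 0.112, adjusted p = 0.00297). Reads of Psme2 and the near-identical Psme2b may be split, so both values are uncertain. Psme3, the gene of the nuclear activator, rose less, from 23.5 to 32.3 CPM (0.38 ± 0.119, adjusted p = 0.0491). Psme4, the gene of the large single-chain activator, had a log2 fold change of 0.04 (adjusted p = 0.79).

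The other immunosubunits did not pass the test. Psmb9, the inducible counterpart of Psmb6, averaged 4.82 against 3.20 CPM (0.52 ± 0.22, adjusted p = 0.119), with overlapping groups. Psmb10, the inducible trypsin-like subunit, averaged 51.0 against 36.5 CPM (0.40 ± 0.144, adjusted p = 0.0734), also with overlap. Psmb9 and Tap1 share 5.79% of the exon length of Psmb9 on opposite strands, and Psmb8 shares 14.7% with Gm20496. The counting ignored strand, so those reads cannot be assigned.

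Among constitutive core, base and lid genes the lid gene Psmd6 had the largest difference. It was at 108, 76.9, 104 and 85.4 CPM in control and 127 to 228 CPM (median 156) in ECL libraries, without overlap (0.72 ± 0.143, adjusted p = 0.00648). The catalytic subunit gene Psmb6, the constitutive counterpart of Psmb9, was at 279, 229.7, 300.2 and 266 CPM in control and 335 to 491 CPM in ECL libraries (0.51 ± 0.122, adjusted p = 0.018). Psmc4, a base ATPase, averaged 204 against 122 CPM (0.66, adjusted p = 0.0147), and Psmd7, the partner of the deubiquitinating lid subunit, rose by a log2 fold change of 0.64 (adjusted p = 0.0201). Psmb5, the constitutive counterpart of Psmb8, did not pass (94.4 against 62.9 CPM, 0.50 ± 0.184, adjusted p = 0.079) although its groups did not overlap. One library weighed on it, since ECL replicate 5 held 165 CPM and the other ECL libraries 73.0 to 104, and without it the difference was 0.30 (adjusted p = 0.0506).

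**Figure D1:**
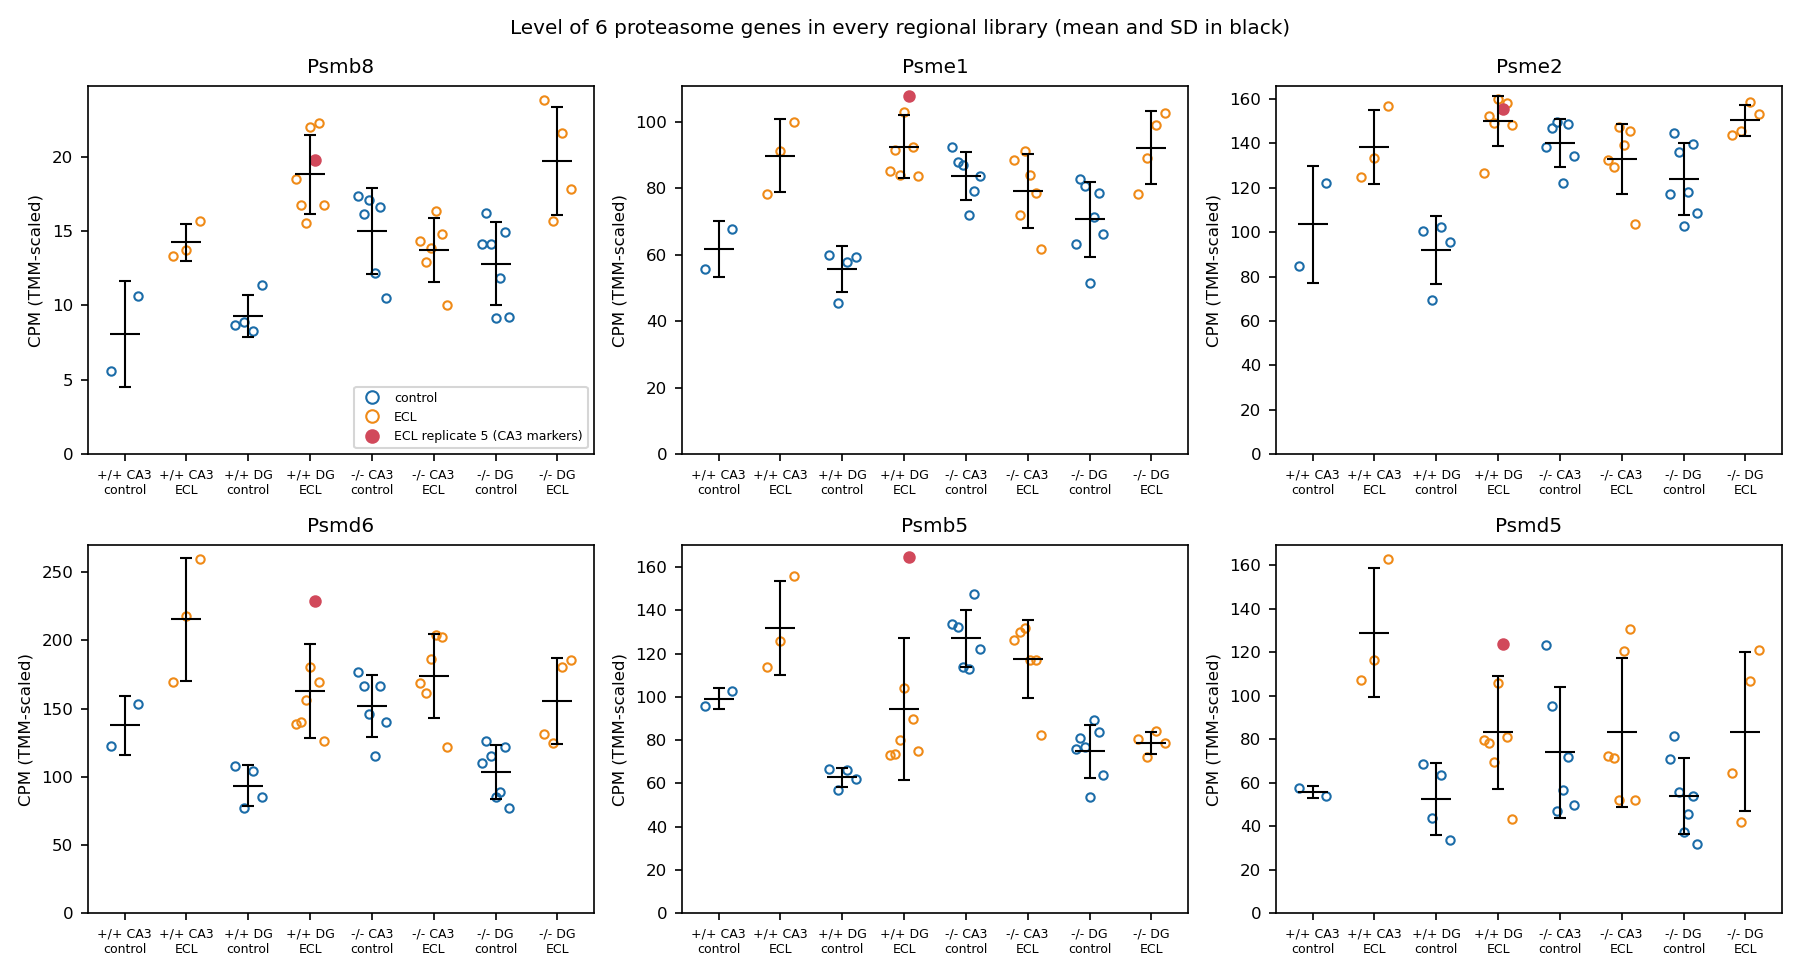
CPM of Psmb8, Psme1, Psme2, Psmd6, Psmb5 and Psmd5 in every regional library, by genotype, region and treatment; circles are libraries (blue control, orange ECL, red filled the Synpo+/+ DG ECL replicate 5) and black marks are group means with SD. Psmb8, Psme1, Psme2 and Psmd6 are higher in all ECL than in all control libraries of Synpo+/+ DG.

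Without ECL replicate 5, 19 members again rose, 18 of them shared with the full comparison, and the median log2 fold change was 0.34. Not all members were positive then, with Psmg2 at -0.03 and Psme4 at -0.007. Psmb8 then differed by 0.91, Psme1 by 0.60, Psme2 by 0.61 and Psmd6 by 0.61, all past the threshold, while Psme3 no longer passed (0.30, adjusted p = 0.0588). The count was more sensitive to other libraries: it was 5 without control replicate 2, 9 without control replicate 3, 6 without control replicate 4, 9 without ECL replicate 4 and 12 without ECL replicate 6. No share over all genes is given for these counts. They cannot tell a loss of calls particular to members from a loss over all genes. With the trend of fold change against exon length removed, 7 members were called, and the share of all genes called is not given. The median over members was then 0.24, while the median of all genes moved by -0.14. Psmb8 and Psmd6 passed in each of the 18 alternatives run (0.61 to 1.03 and 0.45 to 0.79).

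Microglial markers moved with these genes. All 10 markers tested rose in Synpo+/+ DG (median log2 fold change 1.1), none was at 0 in any group, and their summed level went from 423 to 602 CPM in control to 1131 to 1412 CPM in ECL libraries. Of 6 astrocyte markers 4 rose. The part of either in the proteasome values was not tested. Of 10 genes that load or induce class I molecules, 5 rose, among them the class I heavy chains H2-D1 (0.66, adjusted p = 0.0032) and H2-K1 (0.46) and the peptide-trimming Erap1 (0.54). Of 18 proteasome-associated and regulatory genes tested, the base ubiquitin receptor Adrm1 (0.72) and the segregase Vcp (0.41) rose. Of 5 ubiquitin genes, Ubb (0.56) and the activating enzyme gene Uba1 (0.43) rose.

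In Synpo-/- DG, 4 of 50 members tested rose post lesion and none fell, where 5.17% of all genes rose and 3.36% fell (8.53% in either direction). The 4 were Psmb8, Psme1, Psme3 and Psmd6, which all belong to the 19 of Synpo+/+ DG (100% of the 4 and 21.1% of the 19), where 12.2% of all genes were called. The overlap over all genes is not given. Psmb8 was at 23.8, 15.6, 21.6 and 17.9 CPM in ECL libraries and 9.17 to 16.2 CPM (median 14.1) in control libraries, so that the groups overlapped (0.64 ± 0.152, adjusted p = 0.0159). Psmd6 was at 132, 125, 180 and 185 CPM against 76.9 to 127 CPM (0.60 ± 0.132, adjusted p = 0.00948). The median over members was 0.09 against 0.01 over all genes, and over the core 0.07. Psme2 reached 0.29 (adjusted p = 0.0508) and Psmb10 0.08. The count fell to 2 on leaving out control replicate 1 or ECL replicate 1, 3 or 4, and Psmb8 was not called without ECL replicate 1 (0.52, adjusted p = 0.0814). Microglial markers rose here too (9 of 10, summed level 565 to 1136 CPM in control and 1265 to 1532 CPM in ECL libraries), and their part was not tested.

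Whether the lesion difference in DG itself differed between genotypes was tested as an interaction. No member passed, where 0.00381% of all genes did, with 16 members (32%) and 10.4% of all genes at an unadjusted p below 0.05, and no member called by DESeq2. The interaction was positive, that is higher in Synpo+/+, for 45 of 50 members with a median of 0.34 against 0.02 over all genes, and the median was 0.27 without ECL replicate 5. The Psmb8 estimate was 0.34 ± 0.217 (adjusted p = 0.506), so that the lesion difference was not shown to depend on genotype. The control libraries of this test also serve the genotype comparison below.

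In CA3, which receives perforant path fibres from the entorhinal cortex as well as the mossy fibres of dentate granule cells, 1 of 49 members rose in Synpo+/+ cultures, where 1.5% of all genes did and 1.78% changed in either direction. That gene was Psmd5, a chaperone that assembles the base. It was at 57.8 and 54.0 CPM in the control libraries and 107, 117 and 163 CPM in the ECL libraries (1.06 ± 0.166, adjusted p = 0.027). All ECL libraries lay above both control libraries, as they did for 30 of the 49 members (61.2%) and 32.1% of all genes. The call was lost without control replicate 1 (adjusted p = 0.0558), ECL replicate 1 (0.0596) or ECL replicate 2 (0.0917), and 3 members were called without control replicate 2. The count was 10 with DESeq2 and 16 without a filter on low counts. No share over all genes is given for these settings, so these counts show only how the result moves. All 31 constitutive genes had a positive log2 fold change with a median of 0.31, against -0.01 over all genes, of which the lid gene Psmd8 was at 0.75 (adjusted p = 0.0528). Psmb8 was at 5.58 and 10.6 CPM in control and 13.3, 13.7 and 15.6 CPM in ECL libraries, which did not pass (0.68, adjusted p = 0.127). Summed microglial markers were at 452 and 763 CPM in control and 892 to 1161 CPM in ECL libraries, with 1 of 10 called.

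In Synpo-/- CA3 none of 49 members was called by edgeR or by DESeq2 and 1 (2.04%, against 7.27% of all genes) had an unadjusted p below 0.05, where 0.077% of all genes were called (0.053% higher and 0.0241% lower). The median was -0.00, 24 members were positive, and Psmb8 was at -0.11 (adjusted p = 0.902). ECL replicate 6 of this group stood apart, with 30 of the 31 constitutive genes below the mean of its group, by 0.52 on the log2 scale at the median. No member passed the interaction with genotype in CA3 (0% of all genes did) by edgeR or DESeq2, with 14 (28%, against 17.1% of all genes) at an unadjusted p below 0.05, and a median of 0.37 against -0.06 over all genes.

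**Figure D2:**
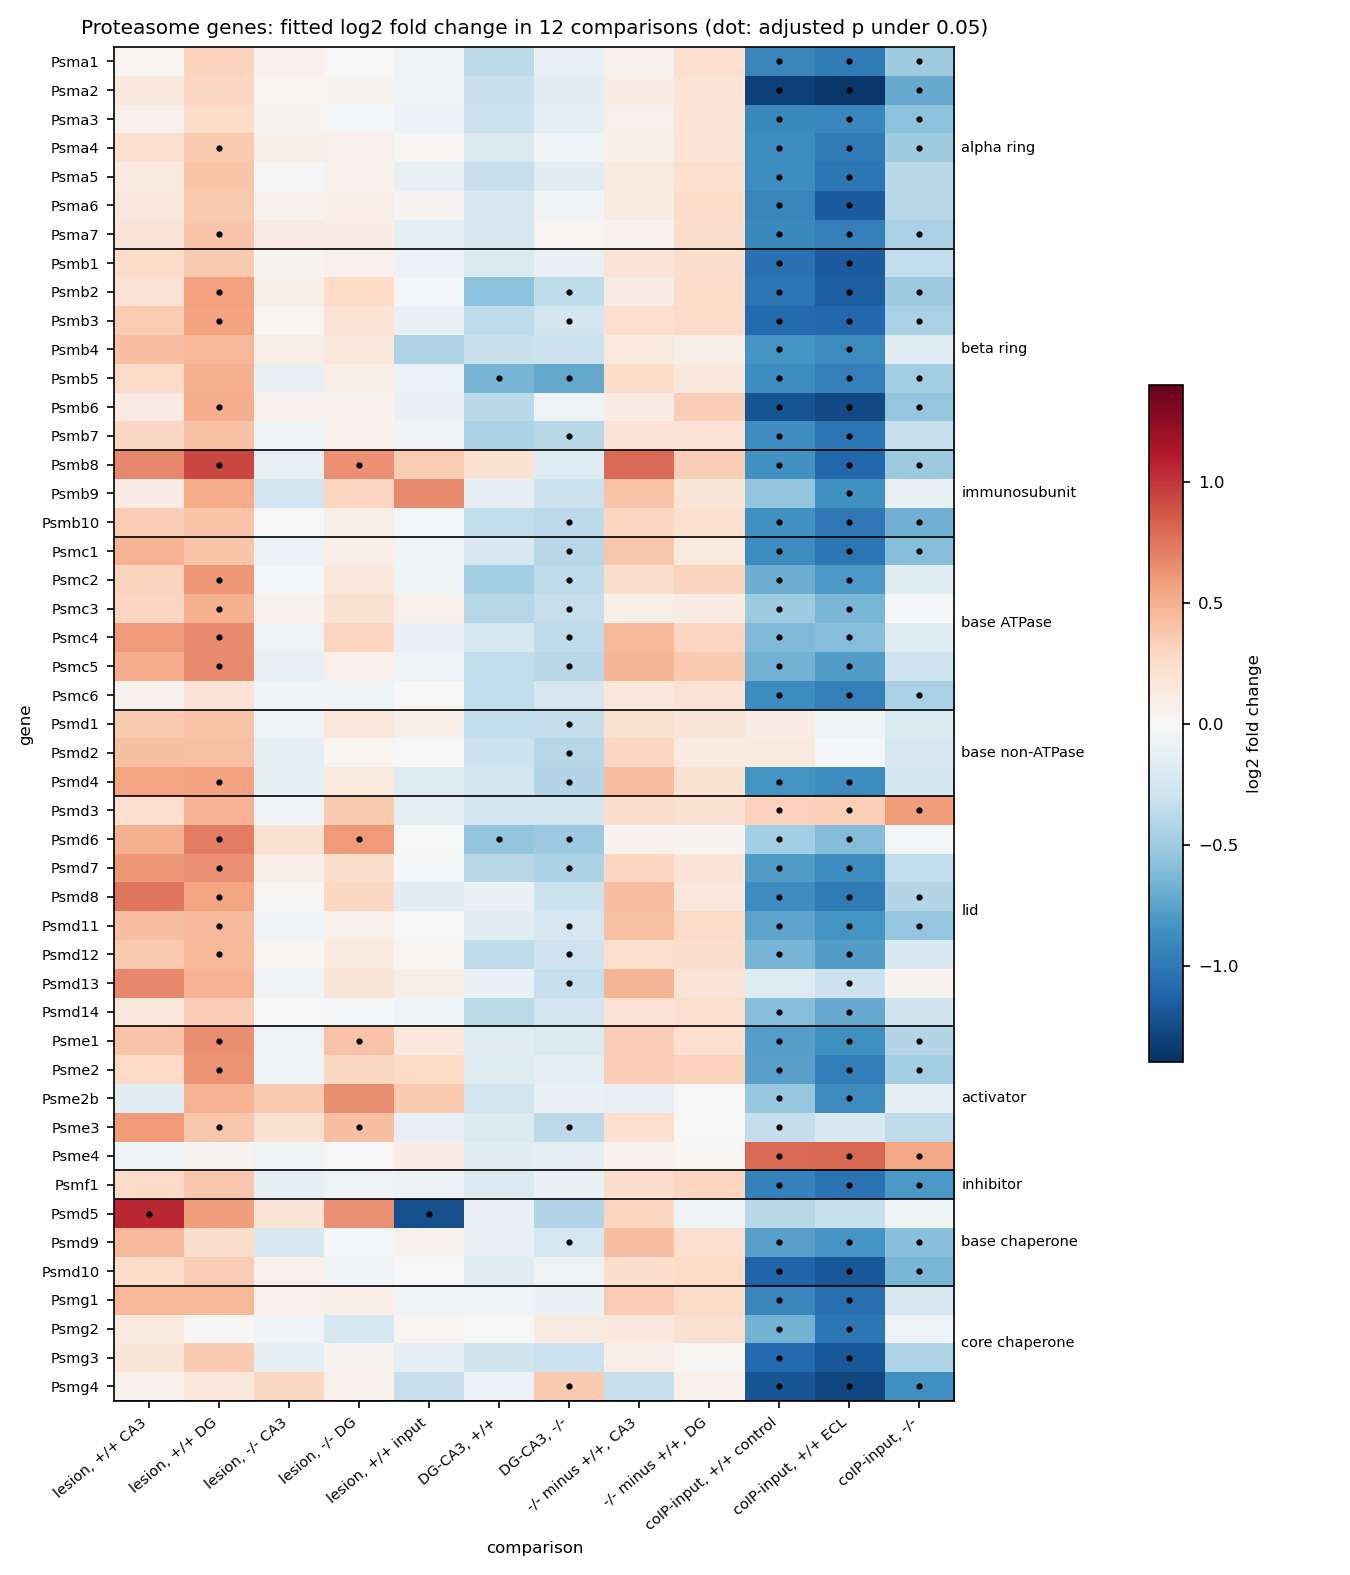
Fitted log2 fold change (colour) of 47 proteasome genes, ordered by class, in 12 comparisons; a dot marks an adjusted p below 0.05. The lesion column of Synpo+/+ DG is positive throughout, the coIP columns are negative apart from a few genes such as Psme4 and Psmd3, and the Synpo-/- CA3 lesion column is near 0.

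The DG was then compared with CA3 in control cultures. In Synpo-/- cultures, with 7 and 6 libraries, 20 of 49 members were lower and 1 was higher in the DG, where 12.5% of all genes were lower and 13.1% higher. The lower genes comprised 8 of 9 base genes, 5 of 8 lid genes, 4 of 7 beta-ring genes and none of 7 alpha-ring genes. Psmb5 differed most, at 53.8 to 89.4 CPM (median 76.9) in the DG and 113 to 147 CPM (median 127) in CA3. It was 1 of 2 members (4.08%) whose regions did not overlap, where 9.17% of all genes did not (-0.72 ± 0.088, adjusted p = 5.38e-06). Psmd6 was at 103.5 against 152 CPM on average (-0.51 ± 0.101, adjusted p = 0.000921). The catalytic gene Psmb7 was lower by -0.39 (adjusted p = 0.00148) and its inducible counterpart Psmb10 by -0.36 (adjusted p = 0.00228), while Psmb6, the remaining catalytic gene, was at -0.08 (adjusted p = 0.499). Psmg4, a chaperone of core assembly, was the member that was higher, at 33.7 against 27.2 CPM (0.36 ± 0.105, adjusted p = 0.0156).

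In Synpo+/+ cultures, with 4 DG and 2 CA3 libraries, 2 of 50 members were lower and none was higher, where 2.75% of all genes were lower and 2.63% higher (5.39% in either direction). They were Psmb5 and Psmd6, both among the 21 of Synpo-/- (9.52% of these), where 25.5% of all genes were called. The overlap over all genes is not given. Psmb5 was at 66.5, 57.1, 66.3 and 61.9 CPM in the DG and 95.8 and 103 CPM in CA3, without overlap (-0.66 ± 0.123, adjusted p = 0.00527). Psmd6 was at 93.6 against 138 CPM on average (-0.56 ± 0.146, adjusted p = 0.0397). All 31 constitutive genes were negative with a median of -0.32, against 0.02 over all genes. Leaving out CA3 control replicate 2 ended both calls (Psmb5 -0.64, adjusted p = 0.0682), and 1 call was left without CA3 replicate 1 or DG replicate 3 or 4. These DG control libraries also serve the lesion and genotype comparisons. Of the 18 associated genes 5 were lower in Synpo-/- DG, among them Ube3c (-0.35), the deubiquitinase gene Usp14 (-0.44) and the shuttle factor gene Ubqln1 (-0.27). Oligodendrocyte markers moved with region (6 of 6 lower in Synpo-/- DG, summed level 464 to 1427 CPM in the DG and 1607 to 2584 CPM in CA3, and 3 of 6 lower in Synpo+/+). Neuronal markers did so too, 2 of 4 being lower in the DG of either genotype (summed level 3118 to 5320 against 6282 to 8287 CPM in Synpo-/- and 2956 to 4037 against 5356 to 6041 CPM in Synpo+/+), and 2 of 10 microglial markers were lower in Synpo-/- DG. The part of these cells was not tested.

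Between genotypes, none of 50 members in CA3 control and none of 49 in DG control libraries was called by edgeR, where 0.00413% and 0.0166% of all genes were (in the DG 0.0124% higher and 0.00414% lower). DESeq2 called 3 and 1, for which no share over all genes is given. With edgeR 16 and 18 members (32% and 36.7%) had an unadjusted p below 0.05, against 16.4% and 15.5% of all genes. In the DG 1 was called without Synpo-/- control replicate 4. The direction was shared, since all 31 constitutive genes were higher in Synpo-/- libraries in CA3 (median 0.21) and in the DG (median 0.21), against medians of -0.02 and -0.02 over all genes. Over all members tested the medians were 0.23 and 0.22. With the length trend removed they were 0.06 and 0.11, against -0.11 and -0.09 over all genes. Genotype and any batch of preparation cannot be told apart. Shifts shared by the constitutive genes also occurred between replicates of one group. In 33 of 63 libraries at least 29 of the 31 constitutive genes lay on one side of the mean of their own group, among them Synpo+/+ DG ECL replicate 5 (31 of 31 above) and Synpo+/+ DG control replicate 2, which was lower by 0.32 on the log2 scale at the median. Members are therefore not independent of each other within a library.

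Among the 42 members with every group mean above 10 CPM, Psmd5 varied most between replicates. Its coefficient of variation within groups had a median of 31.2%, against 18.7% for the next gene, Psmc5, and 13.7% at the median of these members. It was also the only member called between ECL and control inputs of Synpo+/+ whole cultures (1 of 48, where 2.45% of all genes rose and 3.16% fell, 5.61% in either direction), and there it fell. Its level was 132, 144, 155, 139 and 91.7 CPM in control inputs and 33.8, 32.9, 35.8, 66.9 and 114 CPM in ECL inputs (-1.23 ± 0.302, adjusted p = 0.0302). The groups overlapped through ECL replicate 5, and the call was lost without ECL replicate 1, 2 or 3 or control replicate 2, 3 or 4 (adjusted p 0.0579 to 0.0847). The count was 2 without ECL replicate 5 or control replicate 1 or 5. The coIP from the same lysates followed, at 37.1, 20.9, 26.9, 40.4 and 96.2 CPM in ECL and 79.1, 140.5, 89.4, 114 and 64.0 CPM in control preparations. In whole-culture inputs Psmb9 was at 2.10 to 3.24 CPM in control and 2.68 to 4.66 CPM in ECL libraries (0.66 ± 0.201, adjusted p = 0.0723), and Psmb8 averaged 28.9 against 22.5 CPM (0.36, adjusted p = 0.129). Of the 10 microglial markers 4 rose in these inputs, and B2m, the light chain of class I molecules, was among the class I genes that rose (0.62, adjusted p = 0.0022).

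Finally, RNA recovered with synaptopodin was compared with the input of the same lysates. The main test did not use the pairing by lysate, which was taken from the replicate numbers. With a block for the lysate as an alternative, the median log2 fold change in Synpo+/+ control cultures was -0.83. In Synpo+/+ control cultures 41 of 48 members were lower and 2 higher in the coIP, where 25.5% of all genes were lower and 29.6% higher (55.0% in either direction). The median was -0.84 against 0.04 over all genes. All 14 core genes were lower (median -0.91), as were 7 of 9 base genes (-0.66), 6 of 8 lid genes (-0.62) and all 4 chaperones of core assembly (-1.0). The 2 largest base subunits, the scaffold genes Psmd1 (0.11, adjusted p = 0.322) and Psmd2 (0.13, adjusted p = 0.179), were not called.

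Psma2, an alpha-ring subunit, differed most. Its level was 451, 347, 361, 344 and 305 CPM in the inputs and 155, 167, 112, 130 and 145 CPM in the matching coIPs, with every coIP below every input (-1.30 ± 0.116, adjusted p = 7.75e-07). Psmb6 was lower by -1.21 ± 0.135 (adjusted p = 4.23e-06), Psmb8 by -0.85 ± 0.136 (22.5 to 12.1 CPM, adjusted p = 0.00011) and the inhibitor gene Psmf1 by -0.94 ± 0.0935 (adjusted p = 1.59e-06). Psmd7 was lower by -0.78 ± 0.0732 (adjusted p = 1.08e-06) and Psmb2 by -1.02 ± 0.1 (adjusted p = 1.48e-06). Psme4 went the other way, at 58.5, 53.4, 53.9, 55.5 and 47.7 CPM in the inputs and 99.0, 92.6, 96.2, 78.8 and 83.1 CPM in the coIPs. All coIPs lay above all inputs (0.79 ± 0.0927, adjusted p = 6.5e-06). The lid gene Psmd3 was higher by 0.33 ± 0.106 (39.9 against 32.9 CPM, adjusted p = 0.017), with overlap between the groups.

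**Figure D3:**
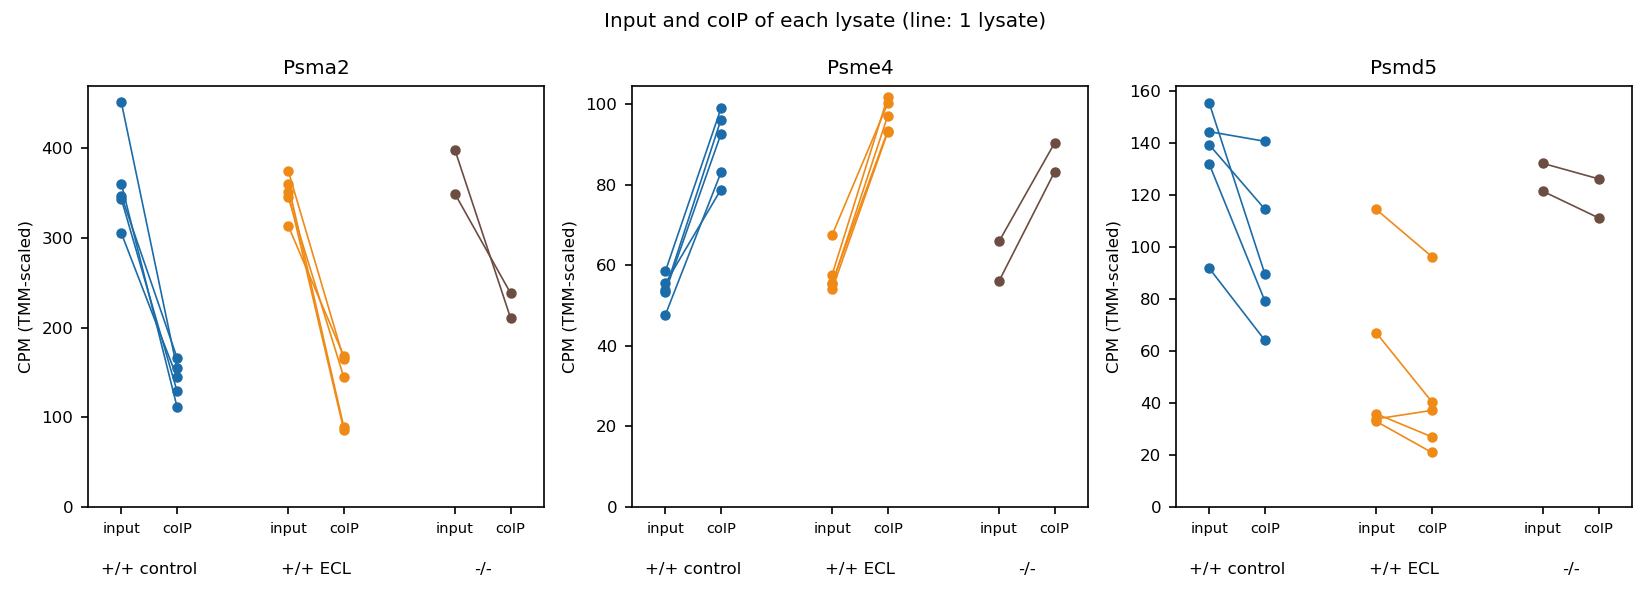
CPM of Psma2, Psme4 and Psmd5 in inputs and Synpo-coIPs, joined by a line where the replicate numbers match (taken as 1 lysate), for Synpo+/+ control, Synpo+/+ ECL and Synpo-/- cultures. Psma2 falls and Psme4 rises along every line, while Psmd5 inputs spread from 32.9 to 155 CPM.

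The same comparison in ECL cultures gave 42 lower and 2 higher of 48 members (27.8% and 30.5% of all genes, 58.3% in either direction), of which 42 were called in both conditions (97.7% of the 43 in control and 95.5% of the 44 in ECL). The overlap over all genes is not given. The median was -0.93, Psma2 was at -1.36 ± 0.175 (adjusted p = 2.07e-05), Psme4 at 0.80 ± 0.091 (adjusted p = 8.74e-06) and Psmd3 at 0.34 ± 0.0967 (adjusted p = 0.00805). The alpha subunit gene Psma1 (-0.99 ± 0.106, adjusted p = 5.93e-06) and the base ATPase gene Psmc6 (-0.95 ± 0.109, adjusted p = 8.85e-06) were among those with the smallest p. All 3 immunosubunits were lower, Psmb9 by -0.86 (adjusted p = 0.0105). Counted by pairs of the same replicate number, the coIP lay below its input in all 5 pairs for 44 of the 48 members tested in control (91.7%, against 30.8% of all genes) and 43 in ECL cultures (89.6%, against 33.1%). It lay above its input in all 5 for 2 members in either (4.17%, against 29.5% and 29.3% of all genes).

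In the libraries labelled Synpo-/-, where by the label the antibody lacks its target, 21 of 50 members were lower and 2 higher in the coIP (16.4% and 15% of all genes), with a median of -0.37. All 23 were also called in Synpo+/+ control (53.5% of the 43 there), where 55.0% of all genes were called. The overlap over all genes is not given. Psma2 was at 349 and 398 CPM in the inputs and 238 and 211 CPM in the coIPs, without overlap (-0.70 ± 0.138, adjusted p = 0.00276). Psme4 was again higher, at 83.2 and 90.4 against 56.1 and 65.9 CPM (0.54 ± 0.14, adjusted p = 0.0118), as was Psmd3 (0.59 ± 0.149, adjusted p = 0.0107), and Psmf1 (-0.80 ± 0.129, adjusted p = 0.000915) and the base ATPase gene Psmc1 (-0.60 ± 0.128, adjusted p = 0.00456) were lower. With 2 pairs the count was 8 without input replicate 2. No member passed the interaction of genotype with fraction (none of all genes did, 0%) by edgeR, while DESeq2 called 2, and 27 of 48 members (56.2%) had an unadjusted p below 0.05, against 7.33% of all genes. It was negative, that is lower in the Synpo+/+ coIP, for 45 members with a median of -0.47. For Psma2 it was -0.65 ± 0.207 (adjusted p = 0.519) and for Psme4 0.20 ± 0.168 (adjusted p = 0.854), so that a difference between genotypes was not shown for either. Counting depth also went with genotype here. Synpo-/- inputs and coIPs held 42886994 to 53682143 counts and Synpo+/+ control ones 12888443 to 26730691. Genotype therefore cannot be told apart from depth or any batch of preparation in this interaction.

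Transcript length moved with the fraction. Across genes, Spearman's rho between merged exon length and the coIP-minus-input log2 fold change was 0.31 over the 48 members and 0.29 over all 18222 genes in Synpo+/+ control cultures, 0.40 and 0.27 in ECL cultures, and 0.20 and 0.15 in Synpo-/-. Genes share libraries, so these are descriptions. Members were short, with a median merged exon length of 2804 bp against 4446 bp for the 14262 other symbols with a mean count over 50, and Psme4 was the longest at 8382 bp. With the length trend removed, the median over members was -0.37 in Synpo+/+ control, 37 members were called and 13 of 14 core genes were still lower (median -0.68), Psmb5 being the exception at -0.13. In Synpo-/- the median was then -0.17 and 6 members were called. The share of all genes called with the trend removed is not given. Psmd3 was at 0.02 and 0.06, and not called, in the 2 Synpo+/+ comparisons once trends with length and GC content were removed. Among 18 associated genes in control cultures, the lid-associated Sem1 (-1.38), Pomp (-1.24) and Uchl5 (-1.17) were lower in the coIP, and the ubiquitin ligase gene Ube3c (0.64) and the transcription factor gene Nfe2l1 (0.59) were higher, in all 8 lower and 5 higher. Of 10 class I genes 4 were higher, among them the peptide transporter genes Tap1 (1.08) and Tap2 (0.96), and B2m was lower (-0.74). Among ubiquitin genes Uba1 (0.70) was higher and Ubb (-0.99) and Rps27a (-0.76) lower. Of the 10 microglial markers 5 were lower in the coIP of control cultures (summed level 687 to 1196 CPM in inputs and 457 to 864 CPM in coIPs), and their part in the values of Psmb8 was not tested.

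**Figure D4:**
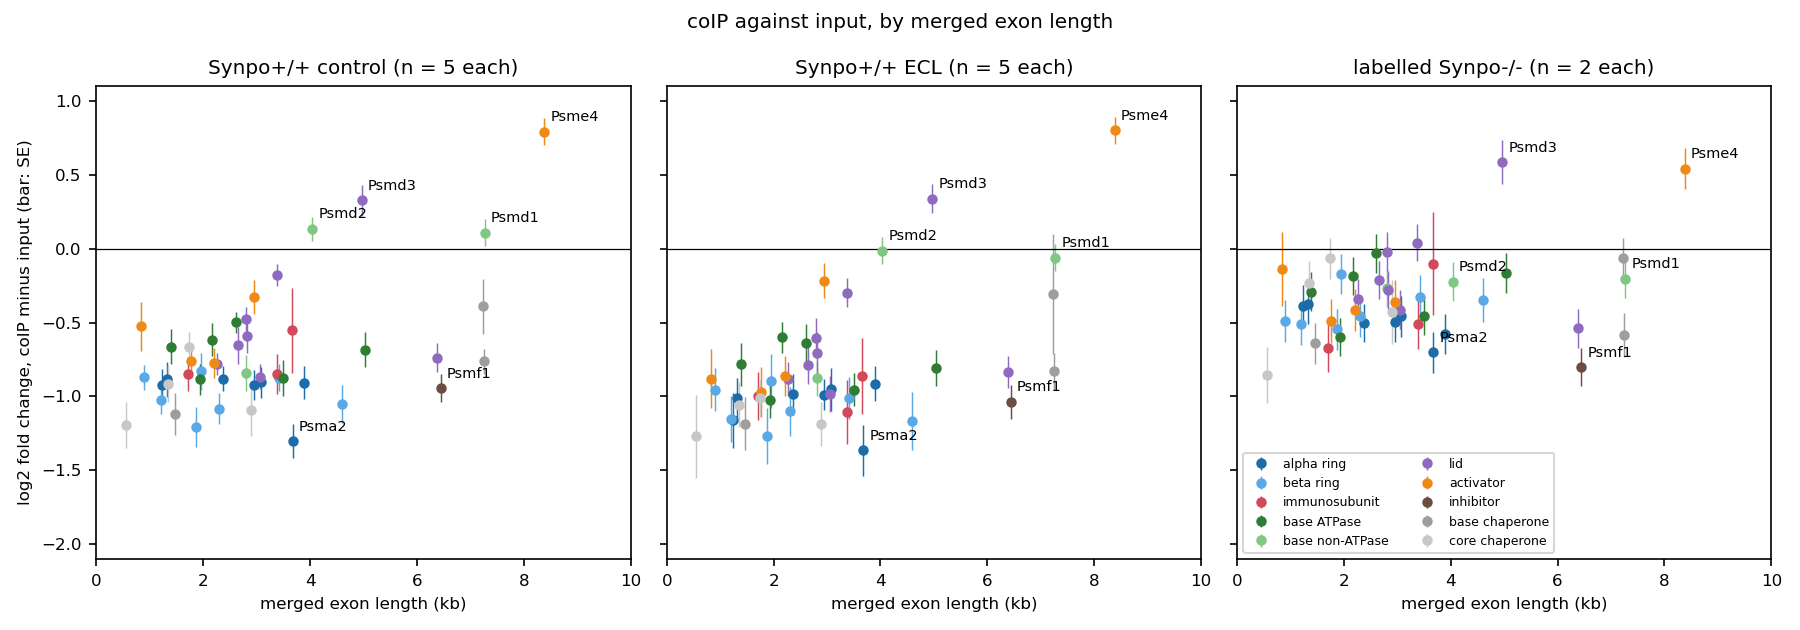
Log2 fold change of coIP over input (vertical, bars SE) against merged exon length in kb (horizontal) for each member, in Synpo+/+ control, Synpo+/+ ECL and Synpo-/- cultures; colours are classes. Most members shorter than the 8382 bp of Psme4 lie below 0, and the values in Synpo-/- are closer to 0.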

How the data were processed

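RNA was sequenced from 39 dissected regions (1 per library, low-input amplification) and 24 input or coIP libraries. Per the authors' methods and processing notes, reads were trimmed with cutadapt 3.5, aligned to GRCm38 with STAR 2.7.8a and counted per gene with featureCounts 2.0.1, unstranded, on GENCODE M25. The deposited values are raw read counts for 55291 gene symbols, of which 107 stand for more than 1 gene. From these counts, each comparison was fitted on its own libraries with edgeR 4.0.16 (R 4.3.3; TMM, filterByExpr, quasi-likelihood F test, Benjamini-Hochberg adjustment over all genes, threshold 0.05). Regional and coIP libraries were normalized separately. Alternatives were DESeq2 1.42.0, other size factors, no filter, removal of trends with exon length and GC content, a replicate block and leaving out each library. Members and lists (microglia, astrocytes, oligodendrocytes, neurons, class I loading, associated and ubiquitin genes) were chosen with earlier results of these data known. Named genes were the immunosubunits, their constitutive counterparts, Psme1 to Psme4, Psmf1 and up to 3 called members with the smallest p per direction and comparison, and Psma6, Psmc4, Psmc5, Psmd1, Psmd2 and Psmd8 were named after their values were seen. By the authors' methods, part of each precleared lysate was kept as input. Input and coIP with the same number were taken as 1 lysate, which the labels do not state. In Synpo-/- the SPko number of the title was used, because the replicate numbers of the inputs run the other way. Same-number deviations correlated (r 0.147 to 0.342 in Synpo+/+ control, 0.0756 to 0.274 in Synpo+/+ ECL, 0.0475 in Synpo-/-). Other numbers reached 0.207, 0.095 and -0.0475, so the Synpo+/+ ranges overlap. The Synpo-/- values can only mirror each other. On counts simulated independently for each gene, 53 to 98 of 100 genes changed 4-fold and 16 to 74 of 100 changed 2-fold were called over the 15 fits, on 17951 to 26821 genes. Counting depth (11601154 to 53682143 per library) limits low genes such as Psmb9, Psma8 and Psmb11. Promoter entries were found for 42 of 50 members. Results on some items are not reported here.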

Additional observations from a re-analysis of the deposited data

Results flagged for a closer look

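Dixon's test was applied to 21 named members in 10 groups of 4 to 7 libraries, 210 checks in all, of which chance flags about 1 in 20; 19 values stood apart from the other libraries of their group. In the Synpo-/- CA3 ECL group the low library was replicate 6 each time, with Psmb2 at 263 CPM (others 431 to 480), Psmb5 at 82.6 (117 to 132), Psmc1 at 167 (296 to 343), Psmd7 at 164 (222 to 250.5) and Psmf1 at 36.2 (67.4 to 76.3). Synpo+/+ DG control replicate 2 was low for Psmb2 (172 CPM, others 254 to 266) and Psme1 (45.4, others 58.0 to 59.8). Synpo+/+ DG ECL replicate 5, the library with CA3 markers, was high for Psmb5 (165 CPM, others 73.0 to 104) and Psmc1 (402, others 208 to 285). In the same group replicate 1 was low for Psme2 (127 CPM, others 148 to 159.9), and in Synpo-/- DG control replicate 4 was low for Psmb10 (33.4, others 46.6 to 50.5).

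Among the inputs of Synpo+/+ control cultures replicate 1 was high for Psmb7 (111 CPM, others 99.7 to 102), Psmb8 (28.4, others 20.1 to 22.2) and Psmc6 (397, others 282 to 307). Among the ECL inputs Psma1 was low in replicate 1 (247 CPM, others 269 to 275) and Psme4 high in replicate 5 (67.6, others 54.1 to 57.7). Among the coIPs Psmb5 was low in control replicate 3 (54.7 CPM, others 65.0 to 68.7), Psmb9 high in control replicate 4 (3.15, others 1.11 to 1.53) and Psmd5 high in ECL replicate 5 (96.2, others 20.9 to 40.4). The cause of these values was not tested.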

How the results depend on the processing

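No called value of a named gene changed sign under any alternative run on it (1112 values on the same side of the threshold, 138 no longer past it), and 224 counts of called members stayed within 1.5 times, while 49 did not. The Synpo+/+ CA3 lesion count of 1 became 10 with DESeq2, 16 without a filter, 3 with a replicate block and 0 with all 4 groups of the region in one fit. The Synpo+/+ DG lesion count of 19 became 7 with the length trend and 4 with the length and GC trends removed, where Psme1 (0.29, adjusted p = 0.0671) and Psme2 (0.31, adjusted p = 0.0717) were not called. With the block the Synpo-/- DG lesion count of 4 and the Synpo+/+ region count of 2 became 0. The genotype counts of 0 became 3 with DESeq2, 2 without a filter and 10 with the block in CA3, and 1 with DESeq2 in the DG. The Synpo-/- coIP count of 23 became 6 with length, 10 with length and GC, and 6 with length in the paired block fit. The input lesion count of 1 became 4 with DESeq2, 2 without a filter, 4 with length and 3 with length and GC removed. The genotype by fraction count of 0 became 2 with DESeq2, 2 without a filter and 1 with the block.

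Leaving out 1 library gave 5 to 21 calls for the Synpo+/+ DG lesion, 2 to 5 for Synpo-/- DG, 0 to 3 for Synpo+/+ CA3, 0 to 0 for Synpo-/- CA3, 0 to 2 for inputs, 0 to 3 and 15 to 24 for region in Synpo+/+ and Synpo-/-, 0 to 0 and 0 to 1 for genotype in CA3 and DG, 42 to 44, 42 to 45 and 8 to 30 for the coIP in Synpo+/+ control, Synpo+/+ ECL and Synpo-/-, and 0 to 0 for the 3 interactions. Region and lesion libraries share only a number. Same-number deviations correlated at -0.138 to -0.134 between Synpo+/+ regions. Between Synpo-/- regions they correlated at -0.0421 to 0.4985, where pairs of other numbers reached 0.338. The block therefore does not stand for a known pairing there, and a shared culture was not tested. The paired block moved no count of coIP against input by over 1.5 times. Where an alternative moved a count, the cause was not tested. Counts under alternatives stand without the share over all genes. On simulated counts of the Synpo+/+ DG lesion, DESeq2 called 23 unchanged genes and edgeR 7. Of 100 genes each, DESeq2 called 62 changed 2-fold and 83 changed 4-fold, and edgeR 55 and 79. For the Synpo+/+ control coIP the unchanged genes called were 15 and 4, and those changed 2-fold 78 and 71. Genes were simulated independently, without the shifts that members share within a library. The simulation therefore cannot say which calls on members are false. The Synpo+/+ CA3 comparison rests on 2 control libraries and the Synpo-/- coIP on 2 pairs.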
